A study of Ictidomys tridecemlineatus with 31 samples.

Results

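Transcripts of 10 genes of the tight junctions of renal epithelia were followed through hibernation in kidneys of the 13-lined ground squirrel, Ictidomys tridecemlineatus: the claudins Cldn2, Cldn3, Cldn4, Cldn7, Cldn8, Cldn10, Cldn16 and Cldn19, occludin (Ocln) and the scaffold protein ZO-1 (Tjp1). The genes were picked by name, and all 10 were found among the 12863 genes of the table, each on 1 line. The animals were sampled in 6 states. Summer active (SA) animals were fattening and homeothermic, and spring dark (SpD) animals had returned to homeothermy after their last torpor bout but were still kept in the dark hibernaculum. The other 4 states came from the torpor-arousal cycle of the hibernation season: interbout aroused (IBA) animals shortly after rewarming, animals cooling at entrance into torpor (Ent), early arousing (EAr) animals that were still cold, and late arousing (LAr) animals further along in rewarming. Poly(A) RNA came from a fragment of each frozen kidney, so that a sample holds cortex and medulla in shares that the labels do not give. The squirrels came from a captive colony or a commercial supplier, all carried implanted temperature devices, none had a drug treatment or engineered allele in the labels, and ages are not in the labels. The table held 31 animals, 1 kidney each. The 29 animals of the study's own differential expression (DE) test are used throughout unless stated: 4 SA animals and 5 in each other state, 16 females and 13 males.

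A tight junction seals the space between neighbouring epithelial cells near their apical side, and claudins are the membrane proteins that form its strands and set which ions pass. Along the nephron each segment uses its own claudins, so that the leaky proximal tubule, the cation-selective thick ascending limb of Henle's loop and the tight collecting duct differ in what they let through. Occludin is another membrane protein of the strands, and ZO-1 ties claudins and occludin to the actin cytoskeleton. In whole tissue, fewer cells of a segment and less RNA per cell cannot be told apart.

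Levels are the deposited batch-corrected rlog values, on a log2 scale on which a difference of 1 is a 2-fold change. They are not scaled to transcript length, so that levels were compared between animals and never between genes. Differences were fitted with limma with terms for state, sex and experiment, and q is the Benjamini-Hochberg adjusted p over all 12863 genes. The study's DE threshold of 0.001 was kept, and "rose" or "fell" is used only of what passed it. Results at q below 0.05 are given as values. Each animal is 1 sample, and the p-values measure the spread between animals.

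The kidney identity of the samples was evident from the markers, with 10 of 10 proximal tubule, 6 of 7 thick ascending limb, 5 of 6 distal convoluted tubule and 7 of 7 collecting duct principal cell genes in the table and none of the 4 adrenal cortex or 3 adipose genes. Of 6 markers of the urothelium of the renal pelvis, 4 were in the table. Animals stood apart within their states. The study set aside K113 (LAr) and K137 (SA) as outliers, and K130 (SpD) was kept. The paper describes both outliers as extremes of cell type make-up within their groups. It also proposes that they were timing variants, ahead of their groups in the change of state. Neither reading was tested here. A further SA library that the study set aside, K136, was not analysed here. The mean level of 4 inner medulla markers (Slc14a2, Akr1b1, Slc5a3, Slc6a12) was 13.21 in K113 against 9.95 to 10.26 in the other LAr animals, 13.73 in K137 against 10.08 to 11.71 in the other SA animals, and 12.72 in K130 against 10.70 to 11.87 in the other SpD animals. The mean of the 10 proximal tubule markers was below that of every other animal of the state in all of these. In IBA, K104 stood in the same direction, at 12.70 for inner medulla markers against 10.05 to 11.44. K130 was above the other SpD animals for 8 of the 10 junction genes and below them for 1, Cldn2. K113 and K137 were each above their state for 6 of the 10, and K104 was above the other IBA animals for 4.

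Across the 6 states, 1 of the 10 genes, Cldn7, was DE (q = 0.000886), beside 9.34% of all genes. With q below 0.05, 5 of the 10 passed (Cldn3, Cldn4, Cldn7, Cldn8 and Cldn10), beside 46.1% of all genes, so that the set as a whole was near the background. With all 31 animals 0 of 10 passed 0.001 by limma (4 had an unadjusted p below 0.05), beside 5.58% of all genes, and the q of Cldn7 across states was 0.0467, that of Cldn10 was 0.00488 and that of Cldn3 was 0.00967. Without K113, K137 and K130 (28 animals) the corresponding values were 0.000814, 0.0305 and 0.00908. Cldn4 and Cldn8 had a q of 0.280 and 0.266 with 31 animals, and of 0.0236 and 0.0689 with 28. Cldn7 lay close to the threshold in the 29 animals too, and leaving out any of 22 of them took its q over 0.001, up to 0.00668 without K104.

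**Figure D1:**
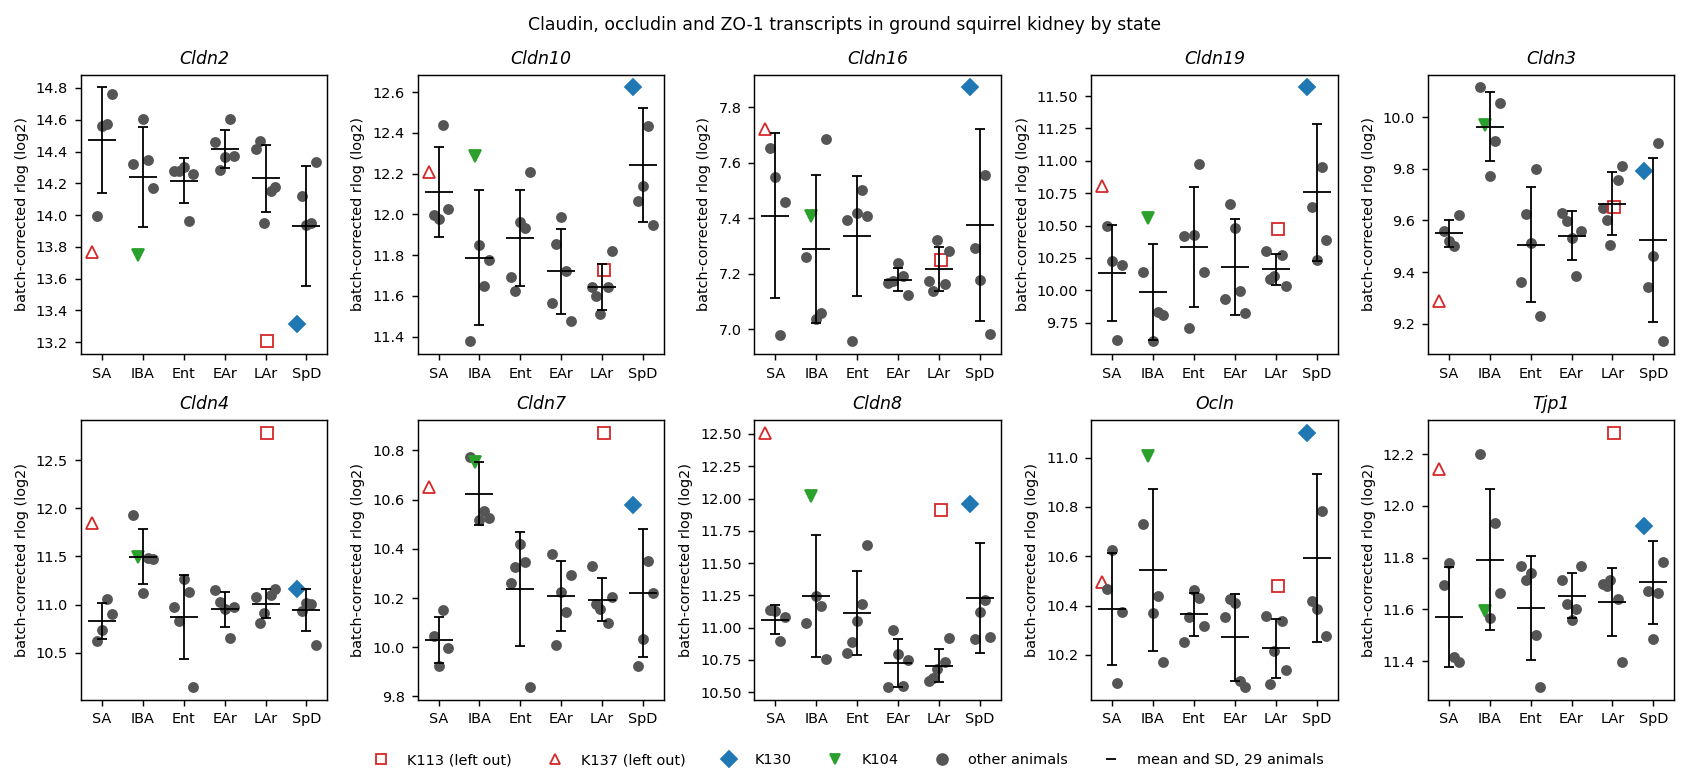
Batch-corrected rlog level (log2, y axis) of the 10 genes in each animal by state (x axis), with the mean and SD of the 29 animals in black and K113, K137, K130 and K104 marked by shape. The 5 IBA animals lie between 10.52 and 10.77 for Cldn7, above every SA animal other than K137, which is at 10.65, and K130 is the highest SpD animal for 8 genes.

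Cldn3, Cldn4 and Cldn7, which are made mainly in the distal nephron and collecting duct, were highest in IBA. Cldn7 rose from SA to IBA by 0.71 ± 0.12 (SE; 1.64-fold, q = 0.000170). Cldn4 was higher by 0.67 ± 0.20 (1.59-fold, q = 0.0166) and Cldn3 by 0.49 ± 0.13 (1.40-fold, q = 0.0115), both short of the threshold. Differences here and below are fitted, with a term for experiment (0.18 for Cldn7) on values already batch-corrected. They can therefore exceed the plain gap between state means, which for Cldn7 were 10.03 in SA and 10.62 in IBA. At entrance into torpor the 3 genes stood at lower values again, at −0.46 for Cldn3, −0.63 for Cldn4 and −0.39 for Cldn7 relative to IBA (q = 0.0115, 0.0153 and 0.0129). With all 31 animals in the fit q was 0.0180, 0.164 and 0.0871, in experiment 2 alone it was 0.135, 0.271 and 0.165, and with animal weights the values for Cldn4 and Cldn7 were −0.37 and −0.25.

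Cldn7, a claudin found along the lateral membranes of collecting duct cells as well as in the junction, had levels of 9.92, 9.998, 10.05 and 10.15 in the 4 SA animals. In the 5 IBA animals it was at 10.52, 10.53, 10.55, 10.75 and 10.77. The lowest IBA animal was thus above the highest SA animal. Levels were 9.84, 10.26, 10.32, 10.35 and 10.42 in Ent, and 10.01, 10.15, 10.23, 10.29 and 10.38 in EAr. They were 10.10, 10.15, 10.18, 10.20 and 10.33 in LAr, and 9.92, 10.03, 10.22, 10.35 and 10.58 in SpD. Every IBA animal was above every Ent, EAr and LAr animal, and in SpD only K130 reached into the IBA range. Without K130, K113 and K137 (28 animals), Cldn7 was higher in all 5 IBA animals than in any animal of the other 5 states, beside 0.334% of all genes. With 29 or 31 animals this held for 0 of the 10 genes. K113 in LAr, at 10.87, was above every IBA animal, and K137 in SA was at 10.65. Relative to IBA the level was lower by 0.54 ± 0.11 in EAr (q = 0.00205), by 0.54 ± 0.11 in LAr (q = 0.00218) and by 0.40 ± 0.10 in SpD (q = 0.00906).

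The IBA/SA call of Cldn7 was 1 of 10 genes called in that comparison, beside 3.15% of all genes, and 0.684% of all genes in the upward direction. It depended on which animals were used. With K113 and K137 put back the difference was 0.58 (q = 0.0204), with K137 at 10.65 within the IBA range, and 0.381% of all genes were then called. Without K104 it was 0.69 (q = 0.00144), and without K130 alongside K113 and K137 it was 0.68 (q = 0.000232). In experiment 2 alone it was 0.63 (q = 0.00132), and with only the SA and IBA animals in the fit it was 0.60 (q = 0.0507).

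Cldn4, a barrier claudin of the collecting duct that restricts sodium passage and works with Cldn8, was at 10.63, 10.73, 10.90 and 11.05 in SA and at 11.12, 11.47, 11.49, 11.49 and 11.93 in IBA. The groups did not overlap, though the gap was narrow. In Ent the levels were 10.14, 10.83, 10.98, 11.13 and 11.27, so that 2 Ent animals were above the lowest IBA animal. The highest values of Cldn4 in the table were those of K113 in LAr, at 12.78, and of K1 in IBA, at 11.93. With all 31 animals the IBA/SA difference of Cldn4 was 0.46 (q = 0.356).

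Cldn3, a sealing claudin whose gene lies next to Cldn4 with no protein-coding gene between them in RefSeq's annotation, was at 9.50, 9.52, 9.56 and 9.62 in SA. It was at 9.77, 9.91, 9.97, 10.05 and 10.12 in IBA, with no overlap, and K137 at 9.29 left that unchanged. IBA was also above EAr in every animal (9.38 to 9.63). In SpD the levels spread from 9.13 to 9.90, with K130 at 9.79 and K84 at 9.90 inside the IBA range.

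For IBA over SA, 3 of the 10 genes did not overlap (Cldn3, Cldn4 and Cldn7), beside 9.17% of all genes with IBA higher. Over EAr 2 of 10 did not overlap (Cldn3 and Cldn7; 7.57% of all genes) and over LAr and over Ent 1 of 10 (Cldn7; 7.62% and 4.51%). With K113 and K137 included, 1 of 10 did not overlap for IBA over SA (Cldn3; 3.39% of all genes) and none for IBA over LAr (3.22%). All of these comparisons share the same 5 IBA animals. At q below 0.05 the counts were 3 of 10 higher in IBA than in SA (10.4% of all genes), 4 of 10 higher in IBA than in LAr (9.93%), 4 of 10 higher than in EAr (9.56%) and 3 of 10 lower in Ent than in IBA (7.61%). SpD against IBA gave 3 of 10 lower (Cldn3, Cldn4 and Cldn7; 5.42%) and 2 of 10 higher (Cldn10 and Cldn19; 6.48%). These looser counts lay near their limit: leaving out K1 took Cldn4 and Cldn7 in Ent relative to IBA to −0.51 (q = 0.0648) and −0.32 (q = 0.0539), and leaving out any of 18 animals took Cldn4 in IBA over EAr, and any of 16 took Cldn3 in IBA over LAr, past 0.05. The median IBA/SA difference was 0.26 over the 10 genes and 0.03 over all genes.

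Markers of the segments were compared between SA and IBA beside these claudins, and no segment marker passed 0.001. The mean level of the 10 proximal tubule markers was 14.89 to 15.21 in SA and 13.82 to 14.54 in IBA, and 7 of the 10 were lower in IBA at q below 0.05, beside 12.5% of all genes, with a median difference of −0.89. For the 7 principal cell markers the ranges were 11.05 to 11.42 and 10.43 to 11.62, the median difference was −0.04, and none passed q below 0.05 in either direction. For the 4 injury markers (Havcr1, Lcn2, Clu and Spp1) the ranges were 10.62 to 11.74 and 11.17 to 13.10. Their median difference was 0.94, and 1 of 4, Havcr1, was higher in IBA at q below 0.05, beside 10.4% of all genes. The part of these in the claudin differences was not tested.

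Only IBA, Ent and SpD were sequenced in both experiments. Ent minus IBA was −0.51 for Cldn3, −0.78 for Cldn4 and −0.42 for Cldn7 in experiment 1, and −0.38, −0.40 and −0.34 in experiment 2. SpD minus IBA was −0.71, −0.78 and −0.56 in experiment 1 and −0.03, −0.22 and −0.17 in experiment 2. There the 2 SpD animals were K130 and K84. Cldn3 was at 9.79 in K130 and 9.90 in K84, Cldn4 at 11.16 and 11.01, and Cldn7 at 10.58 and 10.35. IBA and SA can be compared only within experiment 2 (2 and 4 animals), where Cldn3 differed by 0.33 (q = 0.0287) and Cldn4 by 0.47 (q = 0.0386). With only the SA and IBA animals in the fit these were 0.28 (q = 0.195) and 0.39 (q = 0.276).

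**Figure D2:**
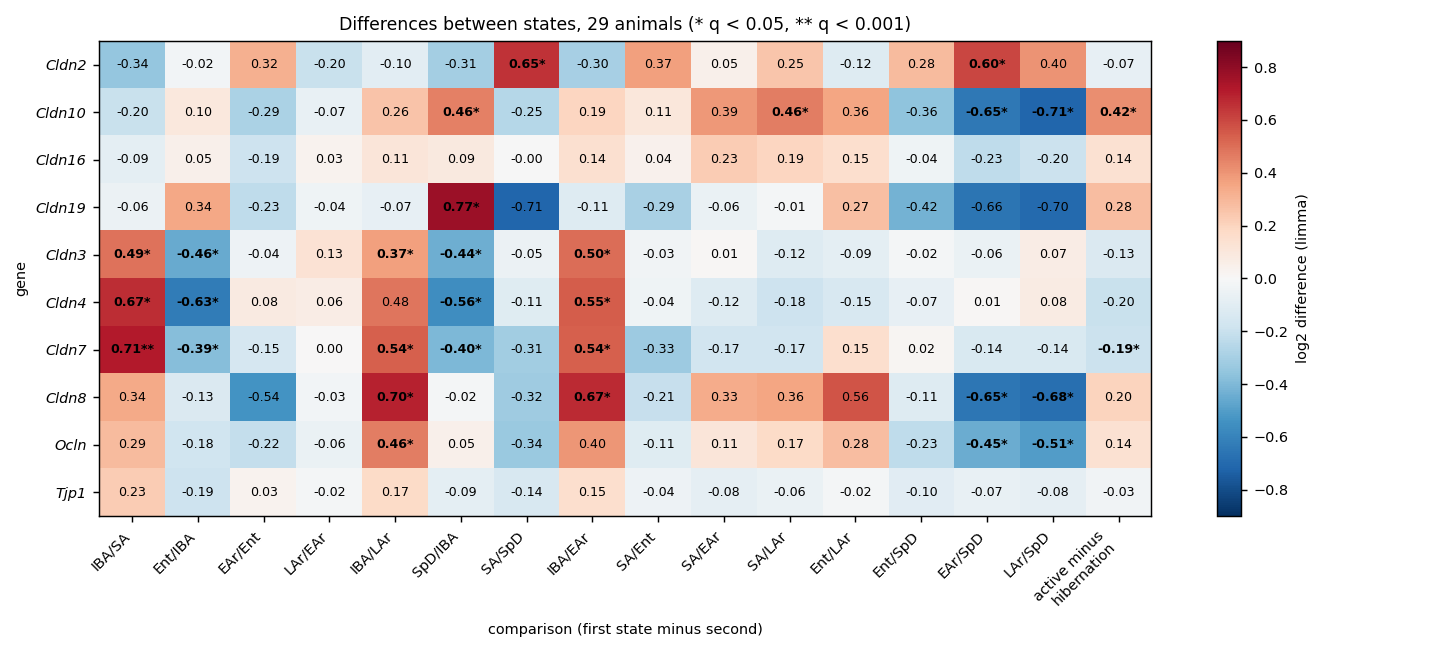
Fitted log2 difference (colour and number) of each gene (rows) for the 15 pairs of states and for the active minus the hibernation states (columns) in 29 animals, first state minus second. Asterisks mark q below 0.05 (*) and 0.001 (**): only Cldn7 in IBA/SA, at 0.71, has the second mark, and Cldn16 and Tjp1 have no mark.

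Cldn8, the claudin of the aldosterone-sensitive distal nephron that recruits Cldn4 to the junction, followed another order. It was lowest in the arousing animals, at 10.54, 10.55, 10.75, 10.79 and 10.99 in EAr and at 10.59, 10.61, 10.68, 10.73 and 10.92 in LAr. In IBA it was at 10.76, 11.04, 11.17, 11.24 and 12.02, and in SpD at 10.92, 10.93, 11.12, 11.22 and 11.96. One animal stood high in each of these, K104 in IBA and K130 in SpD. The fitted differences were 0.67 ± 0.21 for IBA over EAr (q = 0.0298) and 0.70 ± 0.21 for IBA over LAr (q = 0.0227). Relative to SpD, EAr was at −0.65 (q = 0.0313) and LAr at −0.68 (q = 0.0249). Without K104 the IBA differences were 0.42 and 0.43 (q = 0.194 and 0.171), and without K130 the SpD differences were −0.35 and −0.39 (q = 0.330 and 0.258). K137 and K113, at 12.51 and 11.91, stood well above the next animals of their states, at 11.13 and 10.92. With all 31 animals the q of Cldn8 across states was 0.266. Apart from the fits with 1 animal left out, the alternatives took IBA over LAr down to 0.39 (q up to 0.479). They took LAr relative to SpD to −0.19 (q up to 0.818).

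Cldn10, whose isoforms form anion pores in the proximal tubule and cation pores in the thick ascending limb, was higher in the active states. SA animals were at 11.98, 12.00, 12.02 and 12.44 and SpD animals at 11.95, 12.07, 12.14, 12.44 and 12.62. LAr animals were at 11.51, 11.60, 11.64, 11.65 and 11.82, below every SA and SpD animal. The share of all genes separated in that way was not counted, so that nothing is read from it. EAr animals were at 11.47, 11.57, 11.72, 11.85 and 11.99, which overlapped SA and SpD by 1 animal. Ent ran from 11.62 to 12.21 and IBA from 11.38 to 12.29, with K104 the highest IBA animal and K8 the highest Ent animal. Over the seasons, the 9 active animals had a median of 12.07 (11.95 to 12.62) and the 20 hibernation animals a median of 11.71 (11.38 to 12.29).

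The active states exceeded the hibernation states by 0.42 ± 0.09 for Cldn10 (1.33-fold, q = 0.00126), just short of the threshold that 9.73% of all genes passed. The value passed it with all 31 animals (0.43, q = 0.000587), in experiment 2 alone (0.53, q = 0.000378), and without K104 (0.45, q = 0.000439), without K8 (0.45, q = 0.000316) or without K9 (0.45, q = 0.000900). Without K130, K113 and K137 it was 0.38 (q = 0.00351). Among pairs of states, LAr was 0.71 ± 0.16 below SpD (q = 0.00412), EAr was 0.65 ± 0.16 below SpD (q = 0.00798), LAr was 0.46 ± 0.15 below SA (q = 0.0277; 1 of 10 genes higher in SA, beside 13.7% of all genes) and IBA was 0.46 ± 0.14 below SpD (q = 0.0405). Leaving out any of 8 animals took the last of these past 0.05, and any of 3 took the SA and LAr difference past it. Without K130 the EAr and SpD difference had a q of 0.0794 and the LAr and SpD difference a q of 0.0449. SpD minus IBA was 0.45 in experiment 1 and 0.46 in experiment 2. Ent minus IBA had opposite signs in the experiments, at 0.43 and −0.41, and the test of that difference gave q = 0.653.

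Thick ascending limb markers were compared over the same states, and none of them passed 0.001 between the seasons. The mean level of the 6 found (Slc12a1, Umod, Kcnj1, Bsnd, Casr and Ppp1r1a) ran from 12.14 to 13.03 in SA and from 12.64 to 13.98 in SpD, against 12.28 to 13.07 in IBA, 11.94 to 12.98 in Ent, 12.21 to 12.81 in EAr and 12.23 to 12.55 in LAr. The SA range overlapped those of the hibernation states. At q below 0.05, 3 of 6 were higher in the active states, beside 16.8% of all genes, with a median of 0.48, beside −0.0002 over all genes. Of the 10 proximal tubule markers 3 were higher, with a median of 0.23, and of the 7 principal cell markers 3, with a median of 0.51. Their part in the Cldn10 difference was not tested.

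Cldn7 had the opposite sign by season, at −0.19 ± 0.06 (q = 0.0211), with a median of 10.05 (9.92 to 10.58) in the active and 10.31 (9.84 to 10.77) in the hibernation animals. No member passed 0.001 in the seasonal contrast of the 29 animals by limma, and 2 of 10 (Cldn7 and Cldn10) had an unadjusted p below 0.05. At q below 0.05 there was 1 of 10 higher in the active states (Cldn10, beside 16.8% of all genes) and 1 lower (Cldn7, beside 16.6%). For the other 8 genes the seasonal difference lay between −0.20 and 0.28 with q from 0.154 to 0.771.

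**Figure D3:**
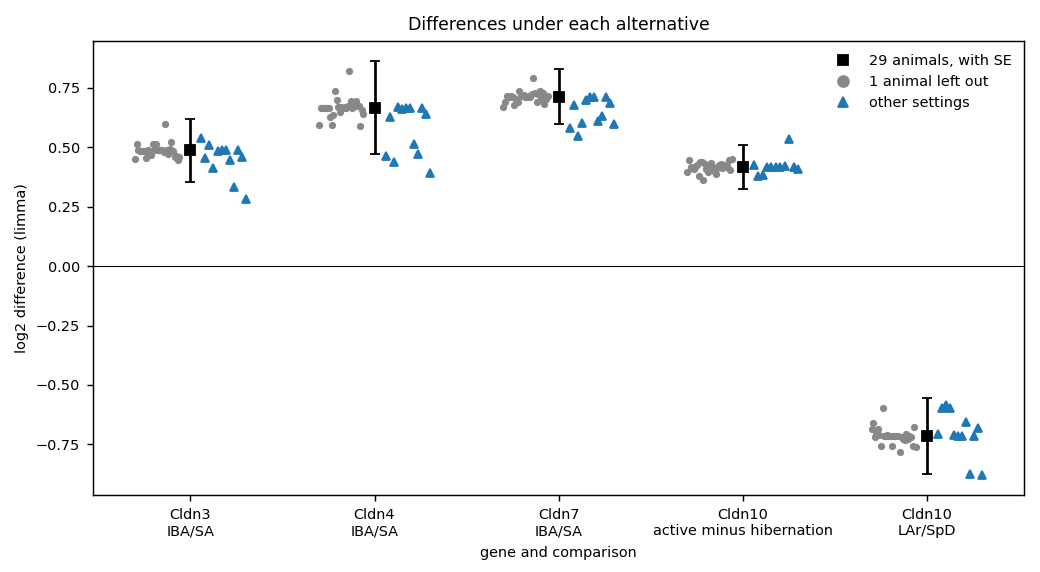
Log2 difference (y axis) of Cldn3, Cldn4 and Cldn7 between IBA and SA and of Cldn10 between seasons and between LAr and SpD (x axis): squares show the 29 animals with SE, circles the fits with 1 animal left out, and triangles the other settings. No point crosses 0, and Cldn4 runs from 0.39 to 0.67 over the other settings and from 0.59 to 0.82 with 1 animal left out.

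Cldn2, the cation and water pore of the proximal tubule, was lowest in SpD. Levels were 13.32, 13.94, 13.95, 14.12 and 14.33 in SpD and 14.00, 14.56, 14.57 and 14.76 in SA. EAr animals were at 14.28, 14.36, 14.37, 14.46 and 14.60. Against SpD the difference was 0.65 ± 0.19 for SA (q = 0.0316) and 0.60 ± 0.18 for EAr (q = 0.0231). Without K130, the animal at 13.32, these were 0.42 (q = 0.237) and 0.36 (q = 0.250). K113 at 13.21 and K137 at 13.77 were likewise the lowest of their states, and K104 at 13.75 was the lowest in IBA. No other pair passed q below 0.05 for Cldn2, which was 1 of 10 genes higher in SA than in SpD (5.47% of all genes) and 1 of 10 higher in EAr than in SpD (9.02%).

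Of Cldn16 and Cldn19, the partners that let calcium and magnesium through the thick ascending limb, Cldn19 had 1 pair of states at q below 0.05 and Cldn16 had none. Cldn19 was highest in SpD, at 10.24, 10.39, 10.65, 10.95 and 11.57, and lowest in IBA, at 9.61, 9.81, 9.83, 10.14 and 10.56. The SpD/IBA difference was 0.77 ± 0.24 (q = 0.0354), and it was 0.50 in experiment 1 and 1.18 in experiment 2. Without K130 it was 0.52 (q = 0.114). The state means of Cldn16 lay between 7.18 and 7.41, close to the rlog of 7 that the authors' filter asked for. An rlog draws the differences of weakly counted genes towards 0, so that its small differences are not read as constancy. In EAr and LAr Cldn16 kept within 7.12 to 7.32, whereas in SA and SpD it ran from 6.98 to 7.65 and from 6.98 to 7.87. Across the 29 animals Cldn16 and Cldn19 had a Pearson's r of 0.634 (Spearman's rho 0.558), and 0.496 without K130.

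Occludin resembled Cldn8. Its levels were 10.08, 10.14, 10.21, 10.34 and 10.36 in LAr, 10.17, 10.37, 10.44, 10.73 and 11.01 in IBA, and 10.28, 10.38, 10.42, 10.79 and 11.10 in SpD. K104 and K130 were again the highest of IBA and SpD. IBA was 0.46 ± 0.15 above LAr (q = 0.0348), and LAr and EAr were at −0.51 ± 0.15 and −0.45 ± 0.15 relative to SpD (q = 0.0201 and 0.0393). Without K104 the IBA/LAr value was 0.33 (q = 0.182), and without K130 the SpD values were −0.31 and −0.23 (q = 0.221 and 0.376). At q below 0.05, 3 of 10 genes (Cldn8, Cldn10 and Ocln) were lower in EAr than in SpD (10.2% of all genes), and the same names were lower in LAr than in SpD (10.6%); both comparisons share the 5 SpD animals. For ZO-1 the states lay close together. The state means of Tjp1 lay between 11.57 and 11.79, the fitted pairs lay between −0.19 and 0.23 with SE of 0.12 to 0.14, and none passed q below 0.05.

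Through arousal itself little was resolved. By limma, 0 of 10 genes passed q below 0.05 between Ent and EAr or between EAr and LAr. At an unadjusted p below 0.05 there was 1 (Cldn8, at −0.54 ± 0.21 in EAr relative to Ent) and 0, respectively. Over all genes these comparisons had 33 and 74 calls at q below 0.05 (0.257% and 0.575%).

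The order of states for each gene rested on few separated neighbours. For Cldn7, IBA stood above the next state, Ent (q = 0.0129), and for Cldn3 above the next, LAr (q = 0.0443). For Cldn4, IBA and LAr differed by 0.48 ± 0.19 (q = 0.0704). No other neighbouring states in the order of any of the 10 genes differed at q below 0.05.

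The genes fell into groups that varied together across the 29 animals. Cldn3, Cldn4 and Cldn7 had Pearson's r of 0.812 (Cldn3 with Cldn4), 0.788 (Cldn4 with Cldn7) and 0.723 (Cldn3 with Cldn7), with Spearman's rho of 0.730, 0.741 and 0.687. On residuals after state, sex and experiment the values were 0.686, 0.701 and 0.526. With K113 and K137 included Cldn3 and Cldn4 had r of 0.469, both animals being above their states for Cldn4 and not for Cldn3. A second group joined Cldn8 with Ocln (r = 0.765, rho 0.693), Cldn8 with Cldn10 (0.689, rho 0.662) and Cldn19 with Ocln (0.671, rho 0.639). Cldn2 ran against it, with r of −0.696 to Cldn19 and −0.604 to Ocln, which were −0.535 and −0.419 without K130. Animals of a state share that state, and segment markers varied between fragments, so these values, from 45 pairs of genes, are descriptions and carry no p.

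**Figure D4:**
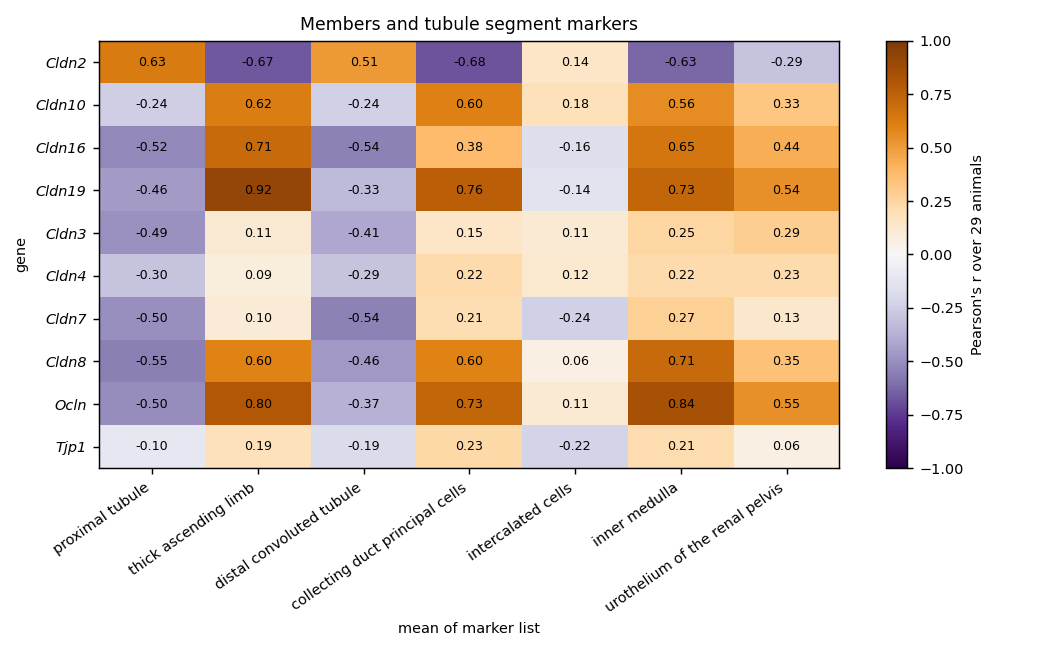
Pearson's r over 29 animals (colour and number) between the level of each gene (rows) and the mean level of the marker list of a tubule segment (columns). Cldn19 has 0.92 with the thick ascending limb, Ocln 0.84 with the inner medulla and Cldn2 0.63 with the proximal tubule, while Cldn3, Cldn4 and Cldn7 lie between 0.09 and 0.11 with the thick ascending limb and between 0.15 and 0.22 with principal cells.

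The levels followed segment markers to different degrees. With the inner medulla markers, Ocln had r of 0.841 and Cldn8 of 0.707, and these were 0.796 and 0.625 without K130. Cldn2 had 0.628 with the proximal tubule markers and −0.682 with those of principal cells, and 0.457 and −0.494 without K130. Cldn10 had 0.619 with the thick ascending limb, 0.603 with principal cells and 0.559 with the inner medulla. Without K130 these were 0.481, 0.458 and 0.445. Cldn3, Cldn4 and Cldn7 had −0.492, −0.296 and −0.499 with the proximal tubule and 0.464, 0.538 and 0.571 with the 4 injury markers, against 0.246, 0.220 and 0.274 with the inner medulla.

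The 2 genes most like each member, by Pearson's r over the same 29 animals, were as follows. For Cldn19 they were Slc12a1, the sodium-potassium-chloride cotransporter of the thick ascending limb (r = 0.916), and an entry that the table names U6 (0.915). For Ocln they were Scin (0.905) and Lrch1 (0.877), and for Tjp1 Wasf2 (0.881) and Prrc2c (0.870). For Cldn4 they were Kiaa0040 (0.884) and the tyrosine kinase Src (0.879), for Cldn7 the corepressor Ctbp2 (0.847) and Ralgds (0.836), and for Cldn3 the TNF receptor family member Cd40 (0.844) and Marcksl1 (0.822). Cldn8 was nearest to Rassf6 (0.864) and the actin-binding Pfn2 (0.838), and Cldn2 to the GABA transporter Slc6a11 (0.836) and the lysosomal lipase LIPA (0.817). Cldn10 was nearest to the mitochondrial carrier Slc25a48 (0.837) and Mtfp1 (0.804), and Cldn16 to the fatty acid binding protein Fabp5 (0.814) and Dse (0.809). With all 31 animals r was 0.597 for Cldn8 with Rassf6 and 0.685 for Cldn3 with Cd40. It was 0.867 for Cldn4 with Src. For Cldn2, Cldn3, Cldn4, Cldn8, Tjp1 and Ocln, neither gene named was then among the 2 nearest. Without K130, K113 and K137, r was 0.728 for Cldn2 with Slc6a11. The genes were picked for the highest r over all others with a symbol, so that a high r was built into the choice.

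Other junction genes were read from lists. Of 16 other claudins and claudin-domain genes listed, 4 were in the table (Cldn1, Cldn5, Cldn12 and Cldn15), and 1 of them, Cldn12, was DE across states (q = 1.38e-05). Cldn12, a claudin linked to paracellular calcium transport, was at a mean of 9.47 ± 0.07 (SD, n = 4) in SA, 9.47 ± 0.13 in IBA and 9.31 ± 0.09 in SpD, against 9.17 ± 0.08 in Ent, 9.08 ± 0.06 in EAr and 9.14 ± 0.07 in LAr (SD, n = 5 each). The animals of SA and IBA (9.34 to 9.61) were all above those of Ent, EAr and LAr (8.99 to 9.25). The share of all genes separated in that way was not counted. Cldn12 was higher in IBA than in EAr by 0.45 ± 0.06 (q = 6.94e-05) and than in LAr by 0.38 ± 0.06 (q = 0.000302), and IBA and SA differed by 0.06 ± 0.07 (q = 0.555). It also rose in the active states (0.18 ± 0.04, q = 0.000554), a call lost without K130 (28 animals, 0.18, q = 0.00112), and with all 31 animals the IBA and LAr difference was 0.35 (q = 0.00149). Cldn1, named after its values were seen, was highest in IBA, at 9.65 ± 0.35 against 8.99 ± 0.21 in SpD (q = 0.00712), but was not DE (q = 0.0136).

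By the test across states, 0 of 14 scaffolds and adaptors (such as Cgn and Magi1), 0 of 11 other junction membrane proteins, 0 of 11 polarity complex genes, 0 of 8 adherens junction genes and 0 of 9 transcription factors that act on claudin and occludin genes passed 0.001 in limma. At q below 0.05 the counts were 4, 1, 5, 5 and 5, and at an unadjusted p below 0.05 they were 7, 4, 8, 5 and 6. Over all genes 46.1% passed q below 0.05. In the seasonal contrast, 4 of the 57 list genes in the table passed 0.001 (7.02%), beside 9.73% of all genes. The 3 other than Cldn12 are named here after their values were seen: Patj, a scaffold of the Crumbs complex (0.36, q = 0.000208), and the kidney cadherin Cdh16 (0.45, q = 0.000287) rose in the active states, and Pard6g, a polarity adaptor, fell by 0.23 there (q = 0.000465).

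By limma 0 of 10 genes passed q below 0.05 for sex (lowest q 0.841) or for a difference between the sexes in the seasonal contrast (lowest q 0.994), and 0 had an unadjusted p below 0.05 in either. Over all genes 3 and 0 passed 0.001. The term for experiment is not read as a result, since the deposited values had already been batch-corrected. In the limma fit it was still 0.18 for Cldn7 and 0.23 for Ocln, the 2 of 10 with an unadjusted p below 0.05. For that term 0 of 10 passed q below 0.05 (lowest q 0.870). For the difference between experiments in Ent minus IBA and in SpD minus IBA, 0 of 10 passed q below 0.05, and 2 of 10 each had an unadjusted p below 0.05 (Cldn8 and Cldn10, and Cldn3 and Cldn16).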

How the data were processed

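Poly(A) RNA of the kidneys, 31 of them in the table, was sequenced by the authors, who trimmed reads with cutadapt, discarded mitochondrial reads by a hisat2 alignment, and used Salmon with the HiC_Itri_2 annotation and tximport for gene totals. Genes were kept where the rlog reached 7 in most animals of a state, and the batch effect between experiment 1 (9 animals) and experiment 2 (22 animals), which differ in library kit, sequencing site and instrument, was removed with limma. Their versions are not given in the sources used here. What the authors deposited is therefore log2 data, batch-corrected rlog values (animal medians 9.74 to 9.88), and an rlog draws the differences of weakly counted genes towards 0. Counts were not used here, so depth is unknown, and errors rest on the animals alone. The study ran its own test on counts. Here limma 3.58.1 (R 4.3.3) was fitted to all 12863 genes, with terms for state, sex and experiment, a variance prior that follows the mean level, and Benjamini-Hochberg correction for each contrast, after being tested on simulated data. SA, EAr and LAr are in experiment 2 alone, and the degree of freedom used up by the batch removal is not subtracted in the fit. The season contrast is the mean of SA and SpD minus the mean of IBA, Ent, EAr and LAr. The members and lists were chosen with earlier results of these data known. In the scaffold list, 1 gene is not reported here and was left out of its counts. Named genes were the members, the 2 genes of highest Pearson's r with each, list genes below 0.001 across states, and markers; any other gene was named after its values were seen, and the text says so or names it only as an example of its list. Alternatives changed the animals (31, 30 or 28, or 1 left out), the terms, the variance prior, animal weights, a minimum mean of 8, median centring, the threshold and the states in the fit. Python 3.11.15 and matplotlib 3.10.9 made the figures.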

Additional observations from a re-analysis of the deposited data

Results flagged for a closer look

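In 9 of 60 groups (10 genes in 6 states, all 31 animals) 1 animal lay farther from the rest of its state than Dixon's 95% limit, where chance gives about 1 in 20. The groups include K113 and K137, which the study had set aside as outliers, and the same animals recur over the 10 genes. Nothing is therefore read from the count beside that share. K113 in LAr accounted for 4 of them, with Cldn4 at 12.78 (others 10.81 to 11.16), Cldn7 at 10.87 (10.10 to 10.33), Cldn8 at 11.91 (10.59 to 10.92) and Tjp1 at 12.28 (11.40 to 11.71). For Cldn8 the same held in K137 of SA, at 12.51 (10.89 to 11.13), and in K130 of SpD, at 11.96 (10.92 to 11.22). The 3 others were Ent animals on the low side: K5 with Cldn2 at 13.96 (14.26 to 14.30), K8 with Cldn7 at 9.84 (10.26 to 10.42) and K167 with Cldn16 at 6.96 (7.39 to 7.50). K113, K137 and K130 had the highest inner medulla marker mean of their states, as given in the report, and its part in their values was not tested.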

How the results depend on the processing

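The 30 differences with q below 0.05 in the 29 animals were refitted under each alternative, a choice that makes a change of sign unlikely. Of the values, 1237 kept direction and side of the threshold, 46 passed it newly, 5 lost it and 0 changed sign. In the 29 animals only Cldn7 in IBA/SA passed 0.001, so keeping side mostly meant staying uncalled, and only Cldn7 could lose it. The alternatives included the looser thresholds of 0.01 and 0.05, and the choice fixed that all 30 pass 0.05. The tally is thus no measure of how stable the results at 0.05 are. At 0.05, leaving out any of 18 of the 29 animals lost Cldn4 in IBA/EAr. Outside that choice a sign did turn: Cldn10 in Ent relative to IBA was 0.10 in the 29 animals and −0.41 as the plain difference in experiment 2. Across states 1 gene was DE at 0.001, 2 at 0.01 and 5 at 0.05. The count was 0 with all 31 animals, with 30 animals, without the term for experiment or without that for sex, 2 with animal weights, and 0 to 1 with 1 animal left out. For IBA/SA (1 gene) it was 0 with 31 or 30 animals, in experiment 2 alone and with 2 states only, 3 at 0.05, and 0 to 1 with 1 animal left out. For the season (0 genes) it was 1 with 31 animals or in experiment 2 alone, 1 at 0.01, 2 at 0.05 and 0 to 1 with 1 animal left out. For pairs with no gene at 0.001, Ent/IBA gave 3 at 0.05 and 1 with animal weights, IBA/LAr 1 at 0.01, 4 at 0.05 and 1 with animal weights, SpD/IBA 1 at 0.01 and 5 at 0.05, and SA/SpD 1 at 0.05. The 2-state and experiment 2 fits hold fewer animals; for the other settings the cause was not tested. No paired analysis was possible because each animal gave 1 kidney in 1 state and the animal numbers are not shared between states.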
